A study of Mus musculus with 9 samples.

Results

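The livers compared here came from mice with a human colon cancer growing in the wall of the cecum and from mice without a tumour, both given vehicle, so that the organ measured was separate from the tumour. The comparison was set by the sample titles: the 3 arrays labelled T-Co against the 3 labelled NT-Co, 6 of the 9 arrays of the study, over all probe sets other than the array's control probe sets. Of 22626 such probe sets 15838 were bright enough to test, and they represented 9225 distinct genes. TK-4 cells were implanted at 6 weeks of age into male athymic mice (BALB/c nu/nu), whose lack of a thymus leaves them without mature T cells. The T-Co mice received vehicle by mouth from day 7 for 1 week, after which the livers were taken. NT-Co mice also received vehicle; no separate strain, sex or age is stated for them. The third group, T-TSU, carried the same tumour and received the kinase inhibitor TSU68 in place of vehicle, and its 3 arrays entered the fit only to steady the estimate of the spread. They also counted, with the other 6, in setting the constant added to the intensities and the brightness needed for testing. Samples are numbered in the labels, which do not state that each was a different animal, and the p-values therefore reflect only how far these samples varied.

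The liver stores fuel after meals and releases it during fasting, and insulin, glucagon, glucocorticoids, growth hormone and the circadian clock set which of these programmes its genes follow. In hepatocytes glucagon acts through cyclic AMP and the factor CREB, insulin restrains FOXO factors, and cytokines of the interleukin 6 family act through the shared receptor chain gp130 and STAT3. Zonation adds a further axis: hepatocytes near the portal vein make glucose and urea, and those near the central vein depend on Wnt and beta-catenin signalling.

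Intensities are linear values scaled by the authors, and differences are T-Co minus NT-Co on a log2(intensity + 7.92) scale, ± SE from limma, with p-values adjusted by the Benjamini-Hochberg method over all 15838 probe sets and a threshold of 0.05. Such a scale understates the change of dim genes. By this test 659 probe sets (4.16% of those tested) were higher and 377 (2.38%) lower in the tumour-bearing livers, which represented 501 and 302 genes. With 1 probe set for each gene, the brightest, 332 genes (3.6% of 9225) rose and 256 (2.78%) fell. NT-Co and T-Co arrays were fully separate for 26.9% of all probe sets tested and for 1035 of the 1036 called. Separate groups of a called gene, where given below, therefore describe its values and add no support to the call. Separation was also a condition for naming the largest rises and falls not described earlier. The median difference over all probe sets was 0.007, and 50.8% lay above 0.

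The called rises had a median of 2.05-fold and reached 30.7-fold, and the called falls had a median of 1.93-fold and reached 37.8-fold. At least 8-fold differences numbered 24 among the rises and 4 among the falls. Calls were more frequent among bright probe sets: with the probe sets divided into 4 equal groups by intensity, 12.3% of the brightest group were called, with a median of 1.82-fold, against 1.44% of the dimmest, with a median of 3.31-fold. The median SE was 0.150 in the brightest and 0.468 in the dimmest group. Against the mean of NT-Co, the called rises, whose side the call itself fixes, stood higher by a median of 0.91, 1.04 and 1.12 in T-Co replicates 9, 10 and 13, and the falls stood at -0.80, -0.89 and -1.08.

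**Figure D1:**
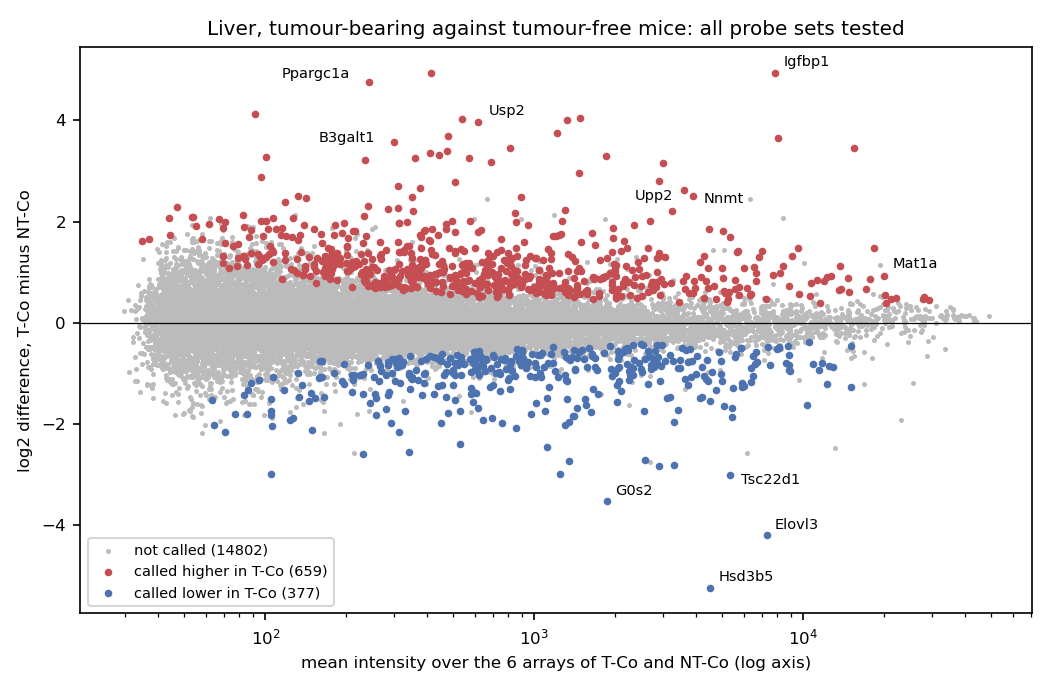
Each point is 1 of the 15838 probe sets tested, with its mean intensity over the 6 arrays (log axis) and its log2 difference, T-Co minus NT-Co; red marks the 659 called higher and blue the 377 called lower. Igfbp1 and Ppargc1a stand at the top, Hsd3b5 and Elovl3 at the bottom, and bright probe sets were called at smaller differences than dim ones.

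The arrays were alike in overall brightness, with medians of 107 to 119. For beta-actin the 3' over 5' control ratio, which reflects how intact and how evenly labelled the RNA is, was 2.26 to 3.14 in NT-Co and 1.88 to 2.10 in T-Co and so did not overlap, and its part in the differences was not tested. The same ratio for Gapdh was 0.736 to 0.798 and 0.734 to 0.809. T-Co replicate 13 lay apart from the other arrays on the second principal component of all 9 arrays. The number of calls depended on single arrays: it was 470 with NT-Co replicate 8 left out (340 higher and 130 lower), 445 with replicate 11 left out (319 and 126), 716 with replicate 10 left out (473 and 243) and 741 to 960 without any 1 T-Co array. It was 473 without the intensity trend of the limma fit and 824 with only the 6 arrays of T-Co and NT-Co fitted. In no alternative did a called probe set turn its sign. The rules by which genes are named gave 170 called probe sets: 60 kept the call in all 15 alternatives in which they were tested, and 100 lost it without 1 array or another, 87 of which also lost it without the intensity trend. A gene given with no further remark is among the 60. For the others the adjusted p without the arrays that ended the call is given. Further alternatives that ended the call are given only for genes that kept it without each array. With only the 6 arrays of T-Co and NT-Co fitted, 37 of the 170 lost the call. The hour of collection, the feeding state and any operation on the mice without tumour are not given, so these and the tumour cannot be told apart.

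**Figure D2:**
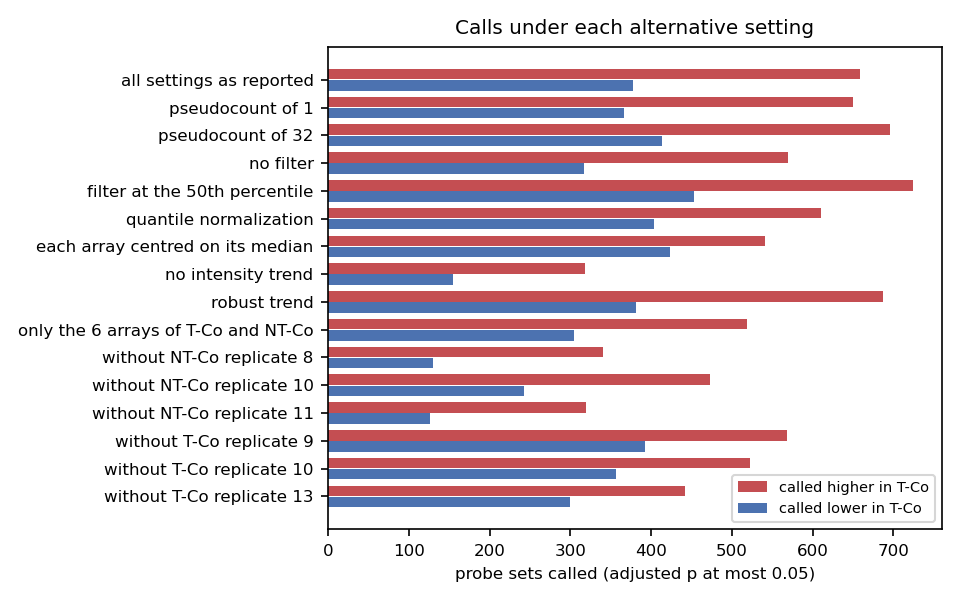
Horizontal bars give the number of probe sets called higher (red) and lower (blue) in T-Co with the settings as reported and under each of the 15 alternatives. The counts fell to 319 and 126 with NT-Co replicate 11 left out and to 318 and 155 without the intensity trend.

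Igfbp1, Ppargc1a and Usp2 were called higher with large differences. Igfbp1, a secreted binding protein for insulin-like growth factors that insulin represses, had intensities of 247, 267 and 1088 in NT-Co and 5907, 15972 and 23565 in T-Co. The lowest tumour-bearing liver was above the highest tumour-free liver, although the arrays varied several-fold within both groups. It rose by 4.94 ± 0.59 on the log2 scale (adjusted p = 0.000908). Ppargc1a, the coactivator PGC-1alpha that drives gluconeogenic and mitochondrial genes, lay at 5.65, 8.23 and 15.0 in NT-Co and 349, 682 and 398 in T-Co. All 3 tumour-free values were under the filter intensity of 36.2, so the probe set was tested only through the arrays of tumour-bearing livers. Its T-Co values stood at 9.65 to 18.9 times that intensity. The fitted difference was 4.76 ± 0.34 (adjusted p = 5.9e-05); its size rests on values near the floor and on the pseudocount, ranged from 3.56 to 5.52 over the alternatives and is not an exact fold. Of its 5 probe sets 3 were called. Usp2, a deubiquitinase whose expression follows the clock, lay at 94.9, 24.5 and 111 in NT-Co and 1024, 1427 and 1029 in T-Co, a rise of 3.97 ± 0.39 (adjusted p = 0.000372) with no overlap between the groups.

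The 3 genes with the largest falls were Hsd3b5, Elovl3 and G0s2. The steroid dehydrogenase Hsd3b5, a male-typical enzyme of mouse liver, lay at 7088, 9503 and 9557 in NT-Co and 350.5, 476 and 61.1 in T-Co. All 3 tumour-bearing values were far below every tumour-free value. It fell by 5.24 ± 0.69 (adjusted p = 0.00135). The fatty acid elongase Elovl3 lay at 12422, 12757 and 16097 in NT-Co and 1199, 1048 and 315 in T-Co and fell by 4.20 ± 0.40 (adjusted p = 0.000344). G0s2, which inhibits the triglyceride lipase ATGL, lay at 2043, 5665 and 2629.6 in NT-Co and 394, 223 and 206 in T-Co and fell by 3.53 ± 0.33 (adjusted p = 0.000344). T-Co replicate 13 was the lowest array for all 3 of these genes, and the groups did not overlap.

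By each gene's brightest called probe set, the promoters of the 4 largest fitted rises and the 2 largest fitted falls with an entry in RefSeq's promoter table are shown, so that the sequences next to the strongest changes can be read. Each runs 5′ to 3′ from 250 bases before to 50 bases after the annotated start, in the build GRCm38.p6. Capitals mark matches, on either strand, to short motifs. These were CAAAACA, the core of the insulin response element; the CREB core TGACG; and the metal response core, spelled TGCACNC. The search also covered the FOXO motif, spelled GTAAACA, the D-box, spelled TTATGNAA, the E-box of clock factors, spelled CACGTG, and the STAT motif, spelled TTCNNNGAA. The last 3 were the C/EBP motif, spelled TTGCNNAA, the AP-1 motif, spelled TGAGTCA, and the TATA box, spelled TATAAA. The CREB core lies within the full CREB site TGACGTCA, which was counted too. Igfbp1 lies at chr11:7197537-7197836 on the plus strand, Ppargc1a at chr5:51567676-51567975 on the minus strand, Lpin1 at chr12:16610917-16611216 on the minus strand and Usp2 at chr9:44084670-44084969 on the plus strand. Hsd3b5 lies at chr3:98645485-98645784 and G0s2 at chr1:193273139-193273438, both on the minus strand.
Igfbp1: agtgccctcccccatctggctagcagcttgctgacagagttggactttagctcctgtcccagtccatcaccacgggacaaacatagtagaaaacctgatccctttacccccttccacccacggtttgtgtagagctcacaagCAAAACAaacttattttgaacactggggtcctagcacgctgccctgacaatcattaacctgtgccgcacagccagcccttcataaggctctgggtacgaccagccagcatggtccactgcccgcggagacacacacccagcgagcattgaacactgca
Ppargc1a: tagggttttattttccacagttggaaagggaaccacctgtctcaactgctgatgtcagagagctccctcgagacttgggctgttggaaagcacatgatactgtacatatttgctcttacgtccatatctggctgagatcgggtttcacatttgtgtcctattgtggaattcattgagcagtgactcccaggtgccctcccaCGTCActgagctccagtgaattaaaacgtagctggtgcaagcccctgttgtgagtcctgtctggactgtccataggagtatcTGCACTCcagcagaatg
Lpin1: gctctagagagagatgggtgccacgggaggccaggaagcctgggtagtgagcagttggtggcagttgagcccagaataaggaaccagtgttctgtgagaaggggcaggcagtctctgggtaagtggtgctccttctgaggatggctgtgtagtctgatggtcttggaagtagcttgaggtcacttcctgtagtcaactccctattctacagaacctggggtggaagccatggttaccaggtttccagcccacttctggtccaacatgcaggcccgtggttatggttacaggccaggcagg
Usp2: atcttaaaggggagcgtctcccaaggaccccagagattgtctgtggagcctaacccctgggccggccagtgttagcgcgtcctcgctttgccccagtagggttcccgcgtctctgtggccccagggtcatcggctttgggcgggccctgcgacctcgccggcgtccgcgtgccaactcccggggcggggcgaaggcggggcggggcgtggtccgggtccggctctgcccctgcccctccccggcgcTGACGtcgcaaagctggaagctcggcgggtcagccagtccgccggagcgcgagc
Hsd3b5: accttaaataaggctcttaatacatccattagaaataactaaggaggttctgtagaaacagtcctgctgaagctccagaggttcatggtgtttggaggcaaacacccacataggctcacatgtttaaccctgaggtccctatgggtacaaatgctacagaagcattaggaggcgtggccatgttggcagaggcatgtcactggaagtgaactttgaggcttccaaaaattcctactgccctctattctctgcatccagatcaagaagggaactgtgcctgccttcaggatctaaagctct
G0s2: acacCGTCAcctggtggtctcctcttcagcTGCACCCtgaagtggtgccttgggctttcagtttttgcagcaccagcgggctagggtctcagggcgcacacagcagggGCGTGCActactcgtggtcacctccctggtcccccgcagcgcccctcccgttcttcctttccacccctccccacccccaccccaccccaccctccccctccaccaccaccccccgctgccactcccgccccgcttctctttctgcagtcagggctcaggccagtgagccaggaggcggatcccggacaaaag
The Igfbp1 window held CAAAACA at position -108 from the start. The Ppargc1a window held the CREB core at -49 and a metal response core at 34, and the Usp2 window held the CREB core at -4. In the G0s2 window the CREB core lay at -246 and metal response cores at -220 and -142, and no listed motif was found in the windows of Lpin1 and Hsd3b5. These matches are descriptions of the sequence, since short motifs are common. The CREB core was in 33.0% of 412 promoters of genes called higher and 28.6% of 248 of genes called lower, against 31.2% of the 7486 promoters of all genes tested. CAAAACA, which was added to the search after the Igfbp1 sequence had been seen, was in 6.07% and 4.44%, against 4.36%. The full CREB site TGACGTCA was in 4.13% and 2.02%, against 3.11%, and the E-box in 9.95% and 9.27%, against 10.2%. The D-box was more frequent in both sets, at 3.641% (15 promoters) and 4.435% (11 promoters), against 2.151%. The STAT motif was less frequent in both, at 5.34% and 4.435%, against 6.973%. Differences between these shares were not tested.

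Nrg4, Plk3, Il6ra and Klb were also called higher. Nrg4, a secreted ligand of the ErbB receptor family that brown fat and liver make, lay at 111, 39.5 and 76.9 in NT-Co and 468, 323 and 842 in T-Co and rose by 2.71 ± 0.38 (adjusted p = 0.00192). Plk3, a stress-responsive kinase, lay at 96.1, 87.4 and 101 in NT-Co and 503, 851 and 622 in T-Co, with little spread among the tumour-free livers, and rose by 2.67 ± 0.28 (adjusted p = 0.000477). Il6ra, the ligand-binding chain of the interleukin 6 receptor, lay at 228, 176 and 174 in NT-Co and 503, 1018 and 541 in T-Co and rose by 1.73 ± 0.30 (adjusted p = 0.00598). Klb, the co-receptor through which hepatocytes respond to FGF hormones, lay at 487, 497 and 568 in NT-Co and 1103, 1152 and 909.8 in T-Co and rose by 1.01 ± 0.16 (adjusted p = 0.00328). None of these 4 genes had overlapping groups. The galactosyltransferase gene B3galt1 had values of 37.4, 19.6 and 12.9 in NT-Co and 126, 227 and 1380.1 in T-Co, with T-Co replicate 13 far above the others. Its NT-Co mean of 23.3 was under the filter intensity and its T-Co arrays stood at 3.48 to 38.2 times that intensity. It was called higher at a fitted 3.57 ± 0.67 (adjusted p = 0.00892), a size that is likewise not an exact fold.

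Upp2, Nnmt, Slc38a2 and Fkbp5 were called higher as well. Upp2, a liver uridine phosphorylase, lay at 926, 683 and 1191 in NT-Co and 6469, 9422 and 2957 in T-Co and rose by 2.62 ± 0.34 (adjusted p = 0.00121), with both of its probe sets called. Nnmt, which methylates nicotinamide with S-adenosylmethionine, lay at 1292, 955 and 1194 in NT-Co and 5558, 5504 and 8781 in T-Co and rose by 2.50 ± 0.44 (adjusted p = 0.00644). The glutamine and alanine transporter Slc38a2 lay at 1065, 849 and 1318 in NT-Co and 3379.7, 4701 and 4895 in T-Co and rose by 2.00 ± 0.24 (adjusted p = 0.000902). Fkbp5, a chaperone of the glucocorticoid receptor that glucocorticoids induce, lay at 509, 400.0 and 419 in NT-Co and 1557, 2175 and 2743 in T-Co and rose by 2.24 ± 0.37 (adjusted p = 0.00454). The weakest tumour-bearing array was above the strongest tumour-free array for each of the 4. The phosphatidate phosphatase Lpin2, a relative of Lpin1, rose on all 3 of its probe sets, the brightest by 1.87 ± 0.31 (adjusted p = 0.00416).

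Further genes called higher included Retreg1, Fbxo31, Itch and Trim24. Retreg1, a receptor for autophagy of the endoplasmic reticulum, lay at 2232, 1954 and 2351 in NT-Co and 5846, 7882 and 9778 in T-Co and rose by 1.82 ± 0.18 (adjusted p = 0.000372). The F-box protein gene Fbxo31 rose by 2.02 ± 0.27 (adjusted p = 0.00141) and the ubiquitin ligase gene Itch by 1.25 ± 0.22 (adjusted p = 0.00606). The deubiquitinase gene Otub1 rose by 2.46 ± 0.32 (adjusted p = 0.00132) on 1 of 2 probe sets, from values at or near the filter intensity. Among transcription regulators, Trim24 rose by 1.94 ± 0.19 (adjusted p = 0.000375), the clock output factor Tef by 1.71 ± 0.18 (adjusted p = 0.000472) and Sp3 by 1.96 ± 0.32 (adjusted p = 0.00424). The ganglioside synthase gene St3gal5 rose by 3.29 ± 0.26 (adjusted p = 0.000117) with tight groups, 267, 326 and 426 in NT-Co and 2906, 3322 and 3871 in T-Co.

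Several other large rises started from low intensities and depended on single arrays. The transcription repressor Zbtb16 rose by 2.50 ± 0.57 (adjusted p = 0.0217; 0.0663 to 0.0911 without NT-Co replicate 10 or 11 or without T-Co replicate 10), the insulin receptor substrate Irs2 by 2.02 ± 0.48 (adjusted p = 0.0261; 0.0584 to 0.0813 without NT-Co replicate 11 or without T-Co replicate 10 or 13) and Max, the partner of MYC, by 2.06 ± 0.45 (adjusted p = 0.019; 0.0606 to 0.0722 without NT-Co replicate 8 or 11 or without T-Co replicate 9). Cyp39a1, a hydroxylase of oxysterols, rose by 2.21 ± 0.46 (adjusted p = 0.015; 0.053 without NT-Co replicate 11) with T-Co replicate 13 well above the other arrays, at 106, 87.3 and 98.0 in NT-Co and 332, 262 and 1246 in T-Co. The NT-Co mean of Max, 21.1, was under the filter intensity, so its fitted size is not an exact fold. A further 9 of the 24 largest rises outside the earlier descriptions also lost the call without 1 array or another.

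**Figure D3:**
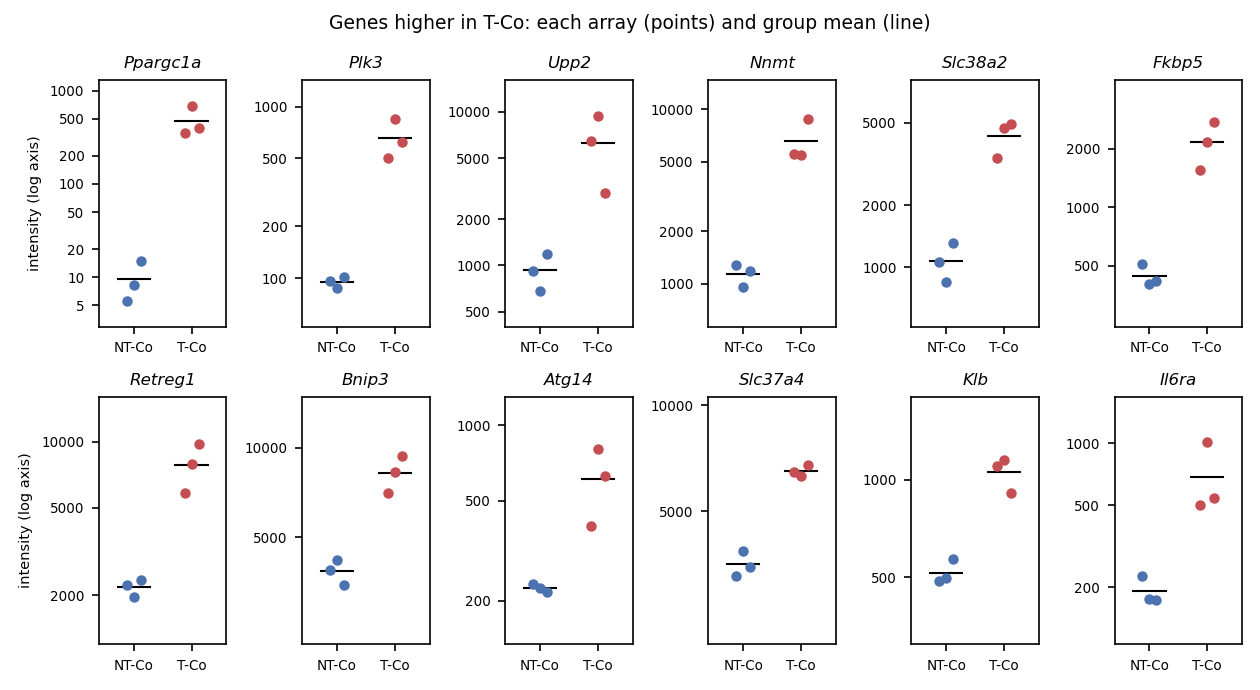
Each panel shows 1 gene called higher, with the intensity of the 3 NT-Co arrays (blue) and the 3 T-Co arrays (red) on a log axis and the mean as a line. The groups do not overlap in any of the 12 panels, and in NT-Co Ppargc1a lies at or under 15.0.

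Ddc, Psen2, Coq8a, Plin2 and Tsc22d1 were called lower. Ddc, which makes dopamine and serotonin from their amino acid precursors, lay at 5472, 5009.6 and 5089 in NT-Co and 1951, 788 and 1499 in T-Co and fell by 1.97 ± 0.30 (adjusted p = 0.00322). Psen2, a catalytic subunit of gamma-secretase, lay at 7413, 7332 and 8626 in NT-Co and 3229, 2998 and 3317 in T-Co and fell by 1.29 ± 0.12 (adjusted p = 0.000344). Coq8a, an atypical kinase needed for coenzyme Q synthesis, lay at 4035, 3705 and 4114 in NT-Co and 1453, 976 and 1109 in T-Co and fell by 1.76 ± 0.20 (adjusted p = 0.000777) on both of its probe sets. Plin2, the coat protein of hepatic lipid droplets, lay at 6293, 7233 and 6786 in NT-Co and 2963, 2668 and 2464 in T-Co and fell by 1.33 ± 0.14 (adjusted p = 0.000472). The groups of all 4 genes were clearly separate. Tsc22d1, a leucine zipper regulator, fell on all 4 of its probe sets, the brightest by 3.02 ± 0.39 (adjusted p = 0.00126).

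The other genes called lower included Inhbe, Aqp8 and Cela1. Inhbe, a hepatokine that encodes the activin E subunit, lay at 595, 833 and 776 in NT-Co and 270.5, 259 and 122 in T-Co and fell by 1.79 ± 0.28 (adjusted p = 0.00379). The water channel Aqp8 of the canalicular membrane lay at 2329, 2359 and 2818 in NT-Co and 939, 699 and 595 in T-Co and fell by 1.76 ± 0.28 (adjusted p = 0.0036). Cela1, an elastase gene that liver as well as pancreas can express, lay at 1937, 2296 and 2287 in NT-Co and 570.4, 756 and 490.0 in T-Co and fell by 1.85 ± 0.24 (adjusted p = 0.00133). None of the 3 genes had overlapping arrays. The nudix hydrolase Nudt7, which degrades peroxisomal coenzyme A, fell by 1.63 ± 0.29 (adjusted p = 0.00695), and the epoxygenase gene Cyp2c23 by 1.88 ± 0.30 (adjusted p = 0.00386). The glutathione transferase gene Gstm6 fell by 1.68 ± 0.30 (adjusted p = 0.00706) and Chka, choline kinase alpha, by 1.68 ± 0.29 (adjusted p = 0.00531). Id3, an inhibitor of helix-loop-helix factors that BMP signals induce, lay at 1089, 1300.2 and 688 in NT-Co and 251, 212 and 311 in T-Co and fell by 1.93 ± 0.23 (adjusted p = 0.000902). The stress-linked gene Ndrg1 fell by 1.83 ± 0.31 (adjusted p = 0.00513) with 4 of 5 probe sets called, and Mtnr1a, a melatonin receptor gene, fell by 1.82 ± 0.33 (adjusted p = 0.00698).

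For 4 further falls, Inmt, Lifr, Alas2 and Cyp4a12a, T-Co replicate 13 was the lowest array, and the calls ended without 1 tumour-free array or another. The methyltransferase Inmt lay at 8080.3, 7486 and 8846 in NT-Co and 4258, 3155 and 804 in T-Co and fell by 1.87 ± 0.46 (adjusted p = 0.0316; 0.0669 to 0.107 without NT-Co replicate 8, 10 or 11). Lifr, the receptor of leukaemia inhibitory factor, lay at 4569, 5041 and 5764 in NT-Co and 1966, 2404 and 751 in T-Co and fell by 1.74 ± 0.41 (adjusted p = 0.0264; 0.054 to 0.0995 without NT-Co replicate 8, 10 or 11 or without T-Co replicate 13). Alas2, a haem synthesis enzyme of erythroid cells, fell by 1.84 ± 0.38 (adjusted p = 0.0137; 0.0585 without NT-Co replicate 11) and Cyp4a12a, a male-typical hydroxylase of fatty acids, by 1.68 ± 0.45 (adjusted p = 0.0469; 0.091 to 0.142 without NT-Co replicate 8, 10 or 11). Cldn1, a tight junction protein, fell by 2.03 ± 0.40 (adjusted p = 0.011; 0.0571 without the intensity trend), with values of 2144, 1938 and 2018 in NT-Co and 495, 250.0 and 947 in T-Co.

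**Figure D4:**
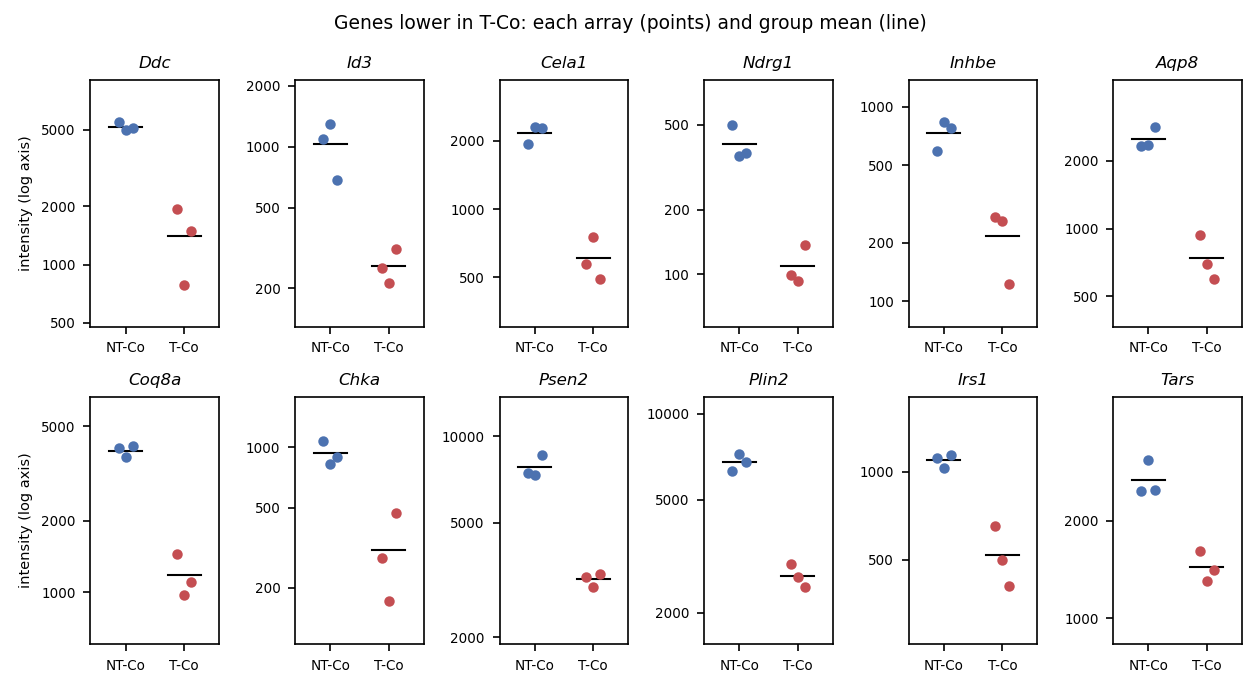
Each panel shows 1 gene called lower, with the intensity of the 3 NT-Co arrays (blue) and the 3 T-Co arrays (red) on a log axis and the mean as a line. The groups do not overlap in any of the 12 panels; Psen2 and Plin2 have tight groups, whereas Ddc, Inhbe and Chka vary more in T-Co.

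Differences were also called among the brightest transcripts of the liver, where they were small in fold but large in intensity. Mat1a, the hepatic synthase of S-adenosylmethionine, lay at 15178, 13879.9 and 12223 in NT-Co and 24666, 24217 and 29500.3 in T-Co and rose by 0.92 ± 0.16 (adjusted p = 0.00574). The urea cycle genes Cps1 (0.46 ± 0.09, adjusted p = 0.00988; 0.0529 with no filter and 0.0506 with each array centred on its median and 0.0882 without the intensity trend) and Arg1 (0.47 ± 0.09, adjusted p = 0.00963; 0.0834 without the intensity trend) rose as well, Arg1 from 17673 ± 1048 to 24543 ± 813 (mean ± SD, n = 3 each). The secreted proteins Ahsg, which is fetuin-A (0.51 ± 0.10, adjusted p = 0.0135; 0.0613 without NT-Co replicate 8), and Plg, plasminogen (0.44 ± 0.09, adjusted p = 0.0156; 0.057 to 0.0729 without NT-Co replicate 8 or 10), rose by a similar amount. Among bright falls, Hagh, a glyoxalase, fell by 0.83 ± 0.14 (adjusted p = 0.00483) on all 3 of its probe sets. The bile acid synthesis enzyme Hsd3b7 fell by 0.86 ± 0.17 (adjusted p = 0.011; 0.053 without NT-Co replicate 11) and the glucuronosyltransferase Ugt2b1 by 1.27 ± 0.31 (adjusted p = 0.0302; 0.057 to 0.105 without NT-Co replicate 8, 10 or 11). Insig2, which holds the SREBP pathway inactive, fell on all 3 of its probe sets, the brightest by 0.95 ± 0.25 (adjusted p = 0.0451; 0.0704 to 0.15 without NT-Co replicate 8, 10 or 11 or without T-Co replicate 9 or 10).

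Gene lists of pathways and families were counted next, with the brightest probe set for each gene. Their counts are to be read against the 3.6% of all genes called higher and the 2.78% called lower, and against a median of -0.016 over all genes. Insulin and FOXO signalling had 28 members tested, of which 3 were higher and 2 lower, with a median of 0.16. Irs1, the substrate that links the insulin receptor to PI3 kinase, lay at 1111, 1032 and 1137 in NT-Co and 649.9, 499 and 406 in T-Co and fell by 1.09 ± 0.18 (adjusted p = 0.00416), without overlap. Pdpk1, the kinase that activates AKT, rose by 0.87 ± 0.17 (adjusted p = 0.0101). Pik3r1, the regulatory subunit of PI3 kinase, rose by 0.97 ± 0.20 (adjusted p = 0.0124; 0.0516 without NT-Co replicate 8) and the adaptor Grb10 fell by 0.76 ± 0.21 (adjusted p = 0.0484; 0.059 to 0.141 without any 1 of the 6 arrays). Irs2 was the third called rise of the list. Of the mTOR, AMPK and nutrient sensing list, 0 of 22 were called by limma, although 6 had an unadjusted p under 0.05 and 2 passed with T-Co replicate 9 left out. The smallest p-values there were those of the AMPK subunit Prkag2, at 0.81 ± 0.23 (adjusted p = 0.0531), and of the translation repressor Eif4ebp1, at 0.44 ± 0.13 (adjusted p = 0.0632).

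Autophagy and ubiquitin genes were called in 1 direction. Of 28 autophagy genes 3 were higher and 0 lower, with a median of 0.19. Bnip3, a mitophagy receptor, lay at 3877, 4201 and 3465 in NT-Co and 7055, 8281 and 9359 in T-Co and rose by 1.09 ± 0.14 (adjusted p = 0.0012). Atg14, a subunit of the PI3 kinase complex that starts autophagosomes, lay at 233, 225 and 216 in NT-Co and 396, 805 and 625 in T-Co and rose by 1.35 ± 0.23 (adjusted p = 0.00474). The lysosomal master regulator Tfeb rose by 1.39 ± 0.32 (adjusted p = 0.0228; 0.0515 to 0.0794 without NT-Co replicate 8 or 11 or without T-Co replicate 10 or 13). Of 31 ubiquitin ligases and deubiquitinases 3 were higher and 0 lower, namely Fbxo31 and Itch, given above, and the E2 enzyme gene Ube2b (0.64 ± 0.13, adjusted p = 0.0135; 0.0761 without NT-Co replicate 11). The deubiquitinase genes Usp2 and Otub1, called higher above, are not among these 3, so the count leaves out called members of the family. The conjugation genes of autophagy Atg5, Atg7 and Atg12 were not called.

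Transporter genes were also counted. Of 19 amino acid transporters 4 were higher and 0 lower, with a median of 0.19; the count was 2 without NT-Co replicate 10 or 11 and 1 without the intensity trend. Beside Slc38a2 these were the taurine transporter Slc6a6 (1.13 ± 0.23, adjusted p = 0.0142; 0.0525 without the intensity trend), the cationic amino acid transporter Slc7a2 (0.84 ± 0.21, adjusted p = 0.0353; 0.0833 to 0.113 without NT-Co replicate 10 or 11 or without T-Co replicate 10) and the hepatic neutral amino acid transporter Slc38a4 (0.38 ± 0.10, adjusted p = 0.0361; 0.0618 to 0.135 without any 1 of the 6 arrays). Of 14 glucose, monocarboxylate and nucleoside transporters 2 were higher and 0 lower, with a median of 0.36. Slc37a4, which brings glucose 6-phosphate into the endoplasmic reticulum for glucose release, lay at 3261, 3845 and 3476 in NT-Co and 6446, 6306 and 6768 in T-Co and rose by 0.88 ± 0.11 (adjusted p = 0.00109). Slc16a7, a monocarboxylate transporter with affinity for pyruvate, lay at 594, 416 and 478 in NT-Co and 967, 953 and 982 in T-Co and rose by 0.97 ± 0.17 (adjusted p = 0.00536). Both genes had tight groups that did not overlap. Of 25 ion channel, pump and aquaporin genes 2 were higher and 1 lower. Atp1b1, the beta subunit of the sodium pump, lay at 593, 656 and 651 in NT-Co and 1753, 1444 and 1794 in T-Co and rose by 1.38 ± 0.19 (adjusted p = 0.00161), and the potassium channel gene Kcnn2 rose by 0.76 ± 0.16 (adjusted p = 0.0148; 0.0531 without NT-Co replicate 10). Aqp8, given above, was the fall.

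Of 28 one-carbon genes 3 were higher and 2 lower, with a median of 0.11. The falls numbered 1 without the intensity trend, without NT-Co replicate 8 or 11 or without T-Co replicate 9 or 13. Fpgs, which adds glutamate to folates and so keeps them in the cell, lay at 2724, 2552 and 2730.4 in NT-Co and 1449, 1368 and 1460.4 in T-Co, with very little spread in either group. It fell by 0.90 ± 0.12 (adjusted p = 0.00121). The mitochondrial serine hydroxymethyltransferase Shmt2 fell by 0.68 ± 0.15 (adjusted p = 0.0189; 0.0506 to 0.0859 without NT-Co replicate 8 or 11 or without T-Co replicate 9 or 13). The rises were Mat1a and Nnmt, which make and use S-adenosylmethionine, and Sat1, an acetyltransferase of polyamines (1.02 ± 0.24, adjusted p = 0.0243; 0.0545 to 0.102 without NT-Co replicate 8, 10 or 11). Of 32 purine and pyrimidine genes 2 were higher and 0 lower: Upp2 and Ppat, which commits phosphoribosyl groups to purine synthesis (0.82 ± 0.21, adjusted p = 0.0383; 0.062 to 0.136 without NT-Co replicate 8 or 11 or without T-Co replicate 9, 10 or 13).

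Genes of translation and of RNA processing were counted next. Of 50 ribosome biogenesis genes 1 was higher and 0 lower, namely nucleolin, Ncl (0.53 ± 0.14, adjusted p = 0.047; 0.0605 to 0.146 without NT-Co replicate 8, 10 or 11 or without T-Co replicate 9 or 13). Of 41 translation initiation factors and tRNA synthetases 3 were higher and 1 lower, and 0 were higher with NT-Co replicate 8, T-Co replicate 9 or T-Co replicate 13 left out or without the intensity trend. Tars, the threonyl-tRNA synthetase, lay at 2474, 3072 and 2483 in NT-Co and 1617, 1304 and 1408 in T-Co and fell by 0.89 ± 0.14 (adjusted p = 0.00328). Of 43 splicing and RNA-binding genes 5 were higher and 1 lower, and 2 were higher without NT-Co replicate 8 or 10 or without T-Co replicate 13. Without the intensity trend 1 was higher and 0 lower. Clk4, a kinase of SR splicing factors, lay at 144, 195 and 135 in NT-Co and 409, 283 and 356 in T-Co and rose by 1.11 ± 0.21 (adjusted p = 0.00807). The mRNA decay factor Zfp36l2 rose by 1.24 ± 0.27 (adjusted p = 0.018; 0.0523 to 0.0752 without NT-Co replicate 10 or 11 or without T-Co replicate 13) and the splicing factor Tra2b fell by 0.85 ± 0.19 (adjusted p = 0.0191; 0.0521 to 0.0789 without NT-Co replicate 8 or 10 or without T-Co replicate 10).

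Of 39 chromatin enzymes and coactivators 5 were higher and 0 lower, a count of 2 without NT-Co replicate 8 or 11 or without the intensity trend. They were led by Ppargc1a, which the list also holds. Chd1, a chromatin remodeller of active genes, lay at 176, 163 and 161 in NT-Co and 326, 317 and 413 in T-Co and rose by 1.03 ± 0.18 (adjusted p = 0.00653). The deacetylases Sirt1 (0.82 ± 0.20, adjusted p = 0.0328; 0.0893 to 0.138 without NT-Co replicate 8 or 11 or without T-Co replicate 13) and Hdac3 (0.52 ± 0.14, adjusted p = 0.0445; 0.0522 to 0.158 without any 1 of the 6 arrays) rose by less. Of 7 histone genes 1 was lower, H1f2 (-1.03 ± 0.25, adjusted p = 0.028; 0.0662 to 0.111 without NT-Co replicate 8 or without T-Co replicate 10 or 13).

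Of 31 peroxisomal genes 4 were lower and 2 higher, with a median of -0.15. Amacr, a racemase for branched fatty acids and bile acid precursors, fell by 0.75 ± 0.16 (adjusted p = 0.016; 0.0612 to 0.0613 without NT-Co replicate 8 or 11). The membrane proteins Abcd3, which imports acyl groups (-0.45 ± 0.10, adjusted p = 0.0212; 0.0586 to 0.0925 without NT-Co replicate 8, 10 or 11), and Pxmp4 (-1.14 ± 0.27, adjusted p = 0.0252; 0.0512 to 0.101 without NT-Co replicate 8, 10 or 11 or without T-Co replicate 9 or 13) fell as well. Eci2, an isomerase of unsaturated fatty acyl-CoA, rose by 0.83 ± 0.15 (adjusted p = 0.00638), with values of 3608, 2981 and 2814 in NT-Co and 5392, 6055 and 5244 in T-Co, and the import receptor Pex5 rose by 0.80 ± 0.18 (adjusted p = 0.0194; 0.057 to 0.0804 without NT-Co replicate 8 or 10 or without T-Co replicate 13). The number of peroxisomal falls was 0 without NT-Co replicate 11 or without the intensity trend. Of 27 sphingolipid genes 2 were higher and 3 lower. Sgpp1, which removes phosphate from sphingosine 1-phosphate, lay at 1730.4, 1284 and 1233 in NT-Co and 844, 703 and 743 in T-Co and fell by 0.87 ± 0.16 (adjusted p = 0.00747). Cers2, the ceramide synthase for very long acyl chains, fell by 0.73 ± 0.14 (adjusted p = 0.0112; 0.0544 to 0.0586 without NT-Co replicate 8 or 11), the ceramidase Acer2 rose by 1.14 ± 0.27 (adjusted p = 0.0271; 0.0662 to 0.0984 without NT-Co replicate 8, 10 or 11 or without T-Co replicate 13), and the saposin precursor Psap rose by 0.62 ± 0.13 (adjusted p = 0.0162; 0.0531 to 0.0586 without NT-Co replicate 8, 10 or 11). The sphingolipid list had 0 rises without any 1 NT-Co array or without the intensity trend, and 1 fall without NT-Co replicate 8 or 11 or without the trend.

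Zonated genes were called in 1 direction within each list. Of 18 periportal genes 6 were higher and 0 lower, with a median of 0.18, and 3 were higher without NT-Co replicate 11 and 1 without the intensity trend. Pck1, the committed step of gluconeogenesis, lay at 8774, 7447 and 9114 in NT-Co and 12447, 18316 and 17358 in T-Co and rose by 0.91 ± 0.15 (adjusted p = 0.00432). Asl, argininosuccinate lyase of the urea cycle, lay at 5116, 5825 and 4926 in NT-Co and 9356, 11062 and 9971 in T-Co and rose by 0.94 ± 0.17 (adjusted p = 0.00756; 0.0528 without the intensity trend). The others were Arg1 and Slc7a2, given above, Tat, tyrosine aminotransferase (0.86 ± 0.20, adjusted p = 0.0238; 0.0535 to 0.0746 without NT-Co replicate 8, 10 or 11 or without T-Co replicate 9 or 13), and Hsd17b6, a hydroxysteroid dehydrogenase (0.66 ± 0.13, adjusted p = 0.0117; 0.0615 without NT-Co replicate 11). Of 27 Wnt, beta-catenin and pericentral genes 0 were higher and 3 lower, with a median of -0.32 (-0.46 to -0.17 with 1 array left out). In this list 1 was lower without NT-Co replicate 8 and 0 without the intensity trend. The 3 called were the Wnt receptor Fzd7 (-1.43 ± 0.31, adjusted p = 0.0162; 0.0501 to 0.0637 without NT-Co replicate 8 or without T-Co replicate 13), the Wnt target Tbx3 (-1.04 ± 0.26, adjusted p = 0.0337; 0.0573 to 0.118 without NT-Co replicate 8 or 10 or without T-Co replicate 10 or 13) and the hepatokine Lect2 (-0.89 ± 0.19, adjusted p = 0.0154; 0.0776 without NT-Co replicate 11). Of the 27 genes 7 lay above 0 and 20 below, and 10 had an unadjusted p under 0.05 by limma. The pericentral enzyme genes Glul and Cyp2e1 were not called and lay above 0, at 0.35 and 0.16, unlike most of the list. A difference between the zones was not tested.

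Hypoxia targets, 2 of 27 higher and 3 lower, were called in both directions. Bnip3 and the glycolytic regulator Pfkfb3 (1.16 ± 0.23, adjusted p = 0.012; 0.0544 without NT-Co replicate 8) rose, whereas Plin2, Ndrg1 and the prolyl hydroxylase Egln3 (-1.11 ± 0.28, adjusted p = 0.0361; 0.0964 to 0.147 without NT-Co replicate 8 or 11 or without T-Co replicate 10 or 13) fell. Of 27 TGF-beta and activin genes 1 was higher and 1 lower: Inhbb, the activin B subunit (1.85 ± 0.45, adjusted p = 0.0308; 0.0614 to 0.119 without NT-Co replicate 8, 10 or 11 or without T-Co replicate 13), and Inhbe, the activin E subunit. Inhbb had an NT-Co mean of 35.6, under the filter intensity.

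Cytokine receptor and signalling genes were called in both directions. Of 38 SOCS, JAK and cytokine receptor genes 3 were higher and 2 lower, and with NT-Co replicate 11 left out these counts were 1 and 0; without the intensity trend they were 2 and 0. Beside Il6ra, the rises were the shared chain gp130, Il6st, at 816, 901 and 666 in NT-Co and 1298, 1287 and 1602 in T-Co (0.81 ± 0.16, adjusted p = 0.00999; 0.0544 without NT-Co replicate 11), and the interleukin 1 receptor Il1r1 (1.35 ± 0.32, adjusted p = 0.0286; 0.0568 to 0.106 without NT-Co replicate 8, 10 or 11 or without T-Co replicate 10 or 13). The falls were Lifr, given above, and the growth hormone receptor Ghr, at 9911, 10919.7 and 13052 in NT-Co and 6945, 7033 and 5033 in T-Co (-0.84 ± 0.16, adjusted p = 0.00963; 0.0515 without NT-Co replicate 11). The chains of the interleukin 6 receptor were called higher and the receptors of growth hormone and of leukaemia inhibitory factor lower. Of 27 NF-kappaB and toll-like receptor genes 3 were higher and 1 lower, and without the intensity trend 1 and 0. Nfkbiz, an inducible nuclear cofactor of NF-kappaB, lay at 297, 296 and 285 in NT-Co and 747, 776 and 869.9 in T-Co and rose by 1.42 ± 0.25 (adjusted p = 0.0066). The inhibitor Nfkbia, at 2322, 2806 and 3667 in NT-Co and 5152, 6109 and 4978 in T-Co, rose by 0.90 ± 0.17 (adjusted p = 0.00768; 0.0511 without the intensity trend) and the adaptor Tifa by 1.40 ± 0.29 (adjusted p = 0.0135; 0.0503 without the intensity trend), whereas the kinase subunit Ikbkg fell by 0.76 ± 0.18 (adjusted p = 0.0253; 0.0531 to 0.0984 without NT-Co replicate 8, 10 or 11 or without T-Co replicate 13).

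Of 39 glycosylation genes 5 were higher and 0 lower, a count of 1 without NT-Co replicate 11 and of 0 without the intensity trend. Gne, the rate-limiting enzyme of sialic acid synthesis, lay at 1769.7, 1428 and 1686 in NT-Co and 2486, 4095 and 2773 in T-Co and rose by 0.91 ± 0.18 (adjusted p = 0.0107; 0.0573 without the intensity trend). Ddost, a subunit of the oligosaccharyltransferase (0.79 ± 0.17, adjusted p = 0.0162; 0.0737 to 0.0767 without NT-Co replicate 8 or 11), Uap1, which makes UDP-N-acetylglucosamine (1.07 ± 0.23, adjusted p = 0.0178; 0.0502 to 0.0827 without NT-Co replicate 8 or 11 or without T-Co replicate 9 or 13), and the Golgi mannosidase Man2a1 (0.50 ± 0.10, adjusted p = 0.0135; 0.0515 to 0.0523 without NT-Co replicate 10 or 11) also rose. Of 18 endocrine receptor and target genes 3 were higher and 1 lower, and without the intensity trend 1 and 0. Beside Klb, Thrsp, a thyroid hormone-responsive regulator of lipogenesis, lay at 2143, 2858 and 4468 in NT-Co and 9058, 5879 and 9594 in T-Co and rose by 1.40 ± 0.26 (adjusted p = 0.00869; 0.0543 without the intensity trend). The adiponectin receptors were called in opposite directions: Adipor1 rose by 0.50 ± 0.12 (adjusted p = 0.0287; 0.0519 to 0.115 without NT-Co replicate 8, 10 or 11 or without T-Co replicate 10 or 13) and Adipor2 fell by 0.49 ± 0.12 (adjusted p = 0.0343; 0.0732 to 0.149 without NT-Co replicate 10 or 11 or without T-Co replicate 10 or 13).

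Some lists were not called at all. Of 26 apoptosis regulators, 17 Hippo and YAP genes and 29 selenoprotein and thioredoxin genes, 0 were called by limma on the brightest probe set. The smallest p-values there were those of Mcl1 at 0.50 ± 0.17 (adjusted p = 0.0992), Ccn1 at -0.84 ± 0.29 (adjusted p = 0.11) and Selenow at -0.45 ± 0.13 (adjusted p = 0.0671). At an unadjusted p under 0.05 the lists held 3, 1 and 8 genes, and 2 selenoprotein and thioredoxin genes were called lower with T-Co replicate 10 left out. The major urinary protein and lipocalin list had a median of -0.53 over 11 genes, which ranged from -0.67 to -0.20 with 1 array left out, and 1 was called, the fatty acid-binding protein gene Fabp2 (-1.12 ± 0.30, adjusted p = 0.0446; 0.0662 to 0.149 without NT-Co replicate 8, 10 or 11). Of the vesicle transport (44 genes), phosphatase (35) and keratin (12) lists, 2, 2 and 1 genes were called. These were 1 higher and 1 lower, 1 higher and 1 lower, and 1 higher. Without the intensity trend 0 were called in each list. The phosphatase rise was lost with any 1 array left out, and the keratin rise with any 1 left out other than T-Co replicate 10.

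**Figure D5:**
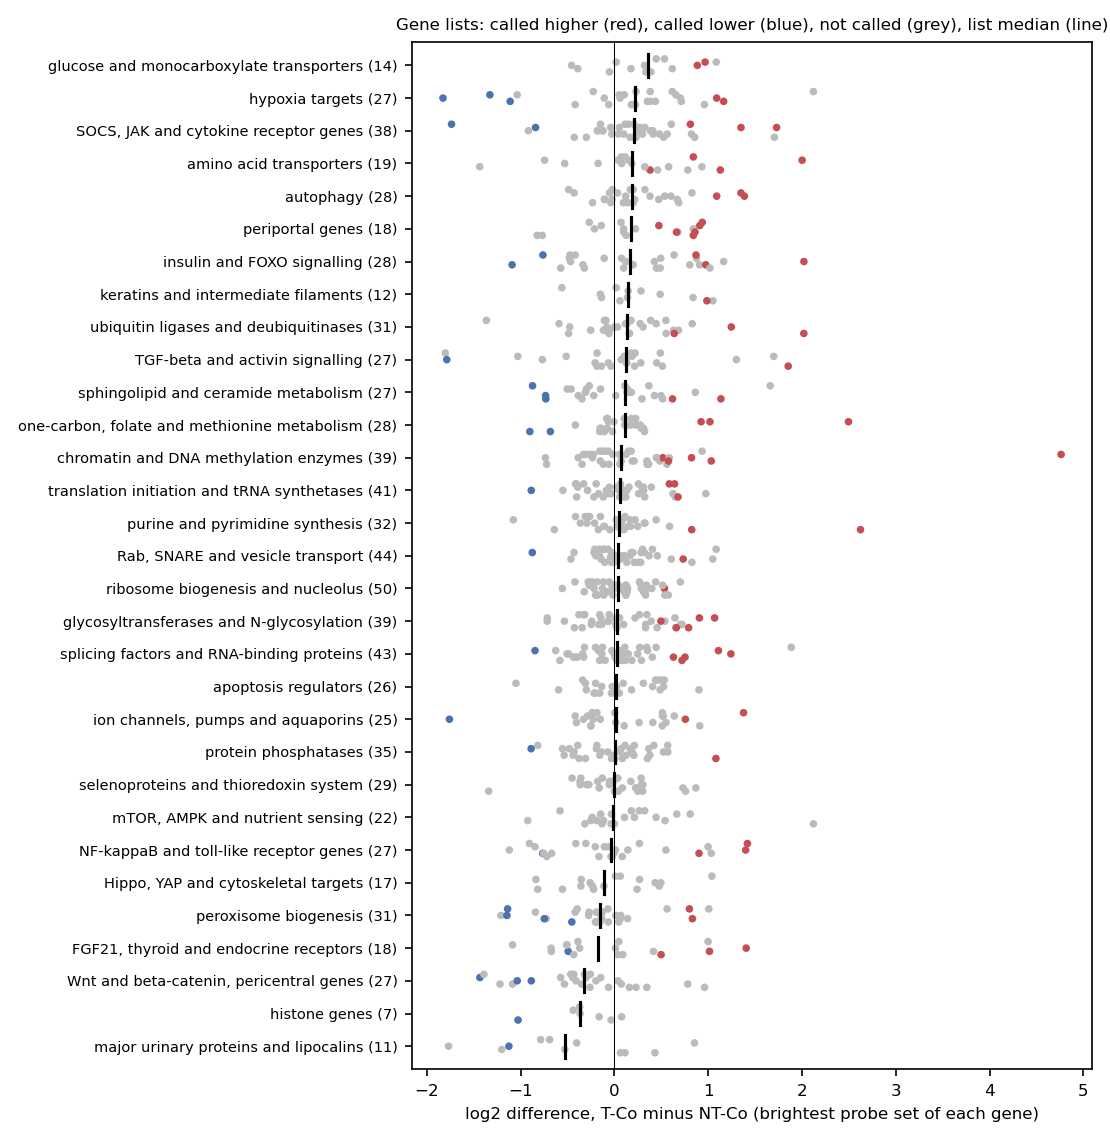
Each row is a gene list with the number of its genes tested; points give the log2 difference, T-Co minus NT-Co, of each gene's brightest probe set, red where called higher, blue where called lower and grey where not called, and the black line is the list's median. Most members of every list are grey, the amino acid transporter, periportal and glycosylation lists hold red points but no blue ones, and the Wnt and pericentral list holds blue points but no red ones.

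Probe sets of the same gene were compared within the arrays. Of 3429 genes with 2 or more probe sets tested, 474 had at least 1 called and 109 at least 2. All tested probe sets were called in 1 direction for 62 genes, and for 352 of the 474 every probe set lay on the side of the called one. The same share was not counted for genes without a call, so the 352 are a description. Aldoa, aldolase A, rose on all 4 of its probe sets, the brightest by 1.03 ± 0.20 (adjusted p = 0.0104; 0.0525 without the intensity trend), and Ctsz, cathepsin Z, on all 3 (0.71 ± 0.12, adjusted p = 0.00646). In 2 genes probe sets were called in opposite directions. For Tbl1x, a subunit of the NCoR corepressor complex, the brightest probe set fell by 0.79 ± 0.17 (adjusted p = 0.0198; 0.0530 to 0.0827 without NT-Co replicate 8 or 11 or without T-Co replicate 10) and a dimmer one rose by 0.92 ± 0.24 (adjusted p = 0.0398; 0.0587 to 0.105 without any 1 of the 6 arrays). For Spata5 the differences were -1.34 ± 0.34 and 1.01 ± 0.27 (adjusted p = 0.0356 and 0.0439), and neither call held without every array: the fall had an adjusted p of 0.0654 to 0.16 without NT-Co replicate 10 or 11 or without T-Co replicate 9 or 10, and the rise of 0.0591 to 0.149 without NT-Co replicate 8 or 11 or without any 1 T-Co array. Which transcript each probe set reads is not given in the files.

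Markers of cell types were read as a check of the tissue, since in bulk RNA a change in the number of cells of a type and a change in RNA per cell cannot be told apart. All 18 hepatocyte markers were bright, and their summed intensity was 454403 to 491978 in NT-Co and 541297 to 553187 in T-Co; 4 were called higher (2 without NT-Co replicate 8 and 0 without the intensity trend) and 0 lower. Albumin lay at a mean of 37950.3 and 41446. The sum of 28 macrophage, neutrophil and endothelial markers was 12007 to 16470.0 and 15487 to 24508 and overlapped. Of the 27 tested 23 had a difference above 0, with a median of 0.44 (0.34 to 0.56 with 1 array left out). Means went from 721 in NT-Co to 1523 in T-Co for the complement gene C1qa, from 162 to 538 for the neutrophil gene S100a8 and from 67.4 to 236 for the endothelial gene Lyve1, none of them called. T-Co replicate 13 was the highest array for each, at 864 for S100a8 against 310 and 441 in T-Co replicates 9 and 10. The 4 markers below 0 were Mpo (72.8 and 49.2), Elane (90.1 and 72.9), Adgre1 (514 and 434) and Tek (113 and 101). The call in this list was Pecam1, an endothelial adhesion gene (1.89 ± 0.50, adjusted p = 0.0425; 0.0543 to 0.144 without NT-Co replicate 8 or 11 or without T-Co replicate 9, 10 or 13), whose NT-Co mean of 34.6 was under the filter intensity. The part of these markers in the other differences was not tested. The 19 stellate cell markers summed to 10699.7 to 11938 for NT-Co, against 9523 to 9917 for T-Co. Dcn (4259 and 3872, NT-Co mean first) was the largest part of this sum. The matrix genes Col3a1 (-1.03 ± 0.20, adjusted p = 0.0101; 0.0544 without NT-Co replicate 8) and Lum (-0.70 ± 0.16, adjusted p = 0.0223; 0.0536 to 0.109 without NT-Co replicate 8 or 11 or without T-Co replicate 10) fell. The list did not fall as a whole: of the 17 tested, 7 lay above 0 and 10 below, with a median of -0.099. Des (44.2 and 99.1), Lrat (46.3 and 88.9), Gfap (73.8 and 139) and Cygb (73.2 and 122) had higher means with the tumour and were not called. Of the 11 lymphocyte markers bright enough to test 0 were called by limma and 1 had an unadjusted p under 0.05, and of the 6 cholangiocyte markers 0 were called and 2 had such a p. The lymphocyte markers tested lay on both sides, 5 above 0 and 6 below. Among the genes that define T cells, Cd3d (18.1 and 4.58, NT-Co mean first) and Cd3g (14.2 and 21.5) had means under the filter intensity. Cd3e (55.3 and 42.6) was bright enough to test and was not called.

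Other lists had non-overlapping sums with some of their defining markers dim and others not, and the part of these sums in the other differences was not tested. The summed pancreatic acinar list was 2696 to 2853 in NT-Co and 1191 to 1684 in T-Co. Cela1 had means of 2173 and 605, and of the other acinar genes Cpa1 (11.9 and 6.99) and Cela2a (15.0 and 23.3) were under the filter intensity in both groups. Prss2 (94.9 and 203.6) and Cela3b (87.3 and 130.4) were above it, with higher means in T-Co, and were not called. The erythroid list was 4567 to 4931 and 3360.3 to 3948, with Alas2 called, while the globin probe sets Hba-a1 and Hba-a2 were at means of 11.2 and 7.05 in NT-Co and 17.9 and 10.1 in T-Co. Of the 16 erythroid markers on the array 11 passed the filter, among them the globin Hbb-b2 (243.9 and 236), the erythroid factor Klf1 (93.1 and 90.6) and the transferrin receptor Tfrc (1633 and 1929). The intestinal list was 5987 to 7149 and 4058 to 5294, with Fabp2 called, and of its defining genes Vil1 (11.8 and 16.3) and Cdx1 (5.36 and 4.79) were near the floor. Of the 7 tested, 4 lay above 0 and 3 below. Lgals4 (123 and 174), Cdx2 (39.5 and 41.6), Tff3 (54.0 and 68.3) and Car1 (248 and 115) were above the filter intensity and not called. Ceacam1 (2939 and 2617) was not called on its brightest probe set, but 4 of its 7 probe sets were called. The mesothelial and adipocyte list was 29904 to 38534 and 3727 to 21655. Car3, an enzyme also abundant in male liver, made up most of it in NT-Co, and Adipoq was at 6.58 and 14.1. Of the 8 tested, 4 lay above 0 and 4 below, and 0 were called. They included the adipocyte genes Fabp4 (202 and 471), Plin4 (104 and 163) and Lpl (821 and 460). Car3 itself had values of 31374, 28358 and 37295 in NT-Co and 19578, 20788 and 1463 in T-Co and was not called (-1.93 ± 0.73, adjusted p = 0.143), T-Co replicate 13 standing far below the other tumour-bearing arrays.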

How the data were processed

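Per the labels' protocols, total RNA of each liver was converted to biotin-labelled cRNA and run on Affymetrix arrays. Linear intensities were deposited by the authors. Each array's mean without 2% at either end is 500.3; the software for scaling is not given here. Of 22690 probe sets 64 controls were left out. Of the other 22626 the platform annotation named 1 gene for 20380, several for 691 and none for 1555, and 20351 of the named ones were found in RefSeq's gene table. No further normalization was applied before log2(intensity + 7.92) was taken, where 7.92 is the 10th percentile of all values. Probe sets whose mean log2 value over all 9 arrays was under the 30th percentile (intensity 36.2) were left out. A group-means model of all 9 arrays was fitted with limma 3.58.1 in R 4.3.3 (6 residual degrees of freedom, intensity trend, two-sided, Benjamini-Hochberg). A gene is named by its brightest called probe set.

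The gene lists, the rule for named genes and the motifs were chosen with earlier results of these data known, so counts over lists are descriptions. Named genes were the 24 largest rises and 24 largest falls, not described earlier, whose groups did not overlap, the 8 brightest called in each direction, the 10 smallest p-values, genes with 3 or more probe sets all called, up to 5 called members of each list (or the 2 smallest p-values), 4 leading genes, and genes called in opposite directions. Other names given as list members were chosen after their values were seen. The result of 1 gene list is not reported here. The pipeline was tested on simulated data. The alternatives were 2 other pseudocounts, 2 other filters, 2 normalizations, 2 other variance models, a fit of the 6 arrays alone, leaving out each array, and the mean of a gene's probe sets in list counts. The number of arrays limits the precision.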

Additional observations from a re-analysis of the deposited data

How the results depend on the processing

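The number of probe sets called was 1036 (659 higher and 377 lower). With 1 array left out it ranged from 445 to 960, the rises from 319 to 568 and the falls from 126 to 392; the lowest counts came without NT-Co replicate 8 or 11. Without the intensity trend 473 were called, 318 higher and 155 lower. Under the other alternatives the total ranged from 824 to 1177. Centring each array on its median put 56.1% of the calls among the rises, against 63.6% with the settings as reported, and moved the median of all probe sets to -0.048. No called probe set turned its sign in any alternative, and of the named calls 97 were lost without the intensity trend, 84 without NT-Co replicate 11, 82 without NT-Co replicate 8 and 0 with a pseudocount of 32 or a filter at the 50th percentile. With the mean of a gene's probe sets in place of the brightest, 5 autophagy genes rose in place of 3 and 2 splicing genes in place of 5. The other probe set of Tbl1x, not called at 0.11, ranged from -0.11 to 0.44 with 1 array left out and so had no settled sign. The cause of these changes was not tested. No paired analysis was made because the labels name no pairs of samples. Signal over background limits the dim genes, whose median SE was 0.468 in the dimmest of 4 intensity groups.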
